A study of Mus musculus with 12 samples.

Results

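The genes described here are the expressed neighbours of Ahr, the gene disrupted in the AhR-deficient mice of this series. Members were all genes whose annotated start lay on chromosome 12 between 15500000 and 55500000 (GRCm38, about 20 Mb on each side of Ahr) and whose normalized count reached 10 in at least 3 of the 12 libraries. Ahr itself and 6 further genes (Slc26a3, Lamb1, Rrm2, Rsad2, Cmpk2 and Egln3) were left out by name. Of 271 genes of the window listed in the table, 120 passed the filter and 113 were members, out of 14856 genes tested in all. A further 381 tested genes lay elsewhere on chromosome 12. The members comprised 93 protein-coding genes and 20 pseudogenes or non-coding genes. Of all 113, 72 started below Ahr in coordinate and 41 above it. The choice used position and level. For 3 members the level reached 10 in libraries of only 1 genotype, so that these had to differ to pass. They were 1700030C10Rik (at most 4.57 in KO), Gm4419 (at most 9.56 in WT) and Gm19196 (at most 6.92 in WT). Sox11 reached 10 in the 3 WT differentiated libraries and in only 1 KO library. It also needed its high WT level to pass.

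Total RNA was sequenced from colonic organoids, epithelial structures grown in a gel from isolated mouse colon crypts. The mice were AhR deficient (KO) or wild type (WT), both with a C57BL/6 strain background on the labels. Stem cell cultures were kept with the growth factors EGF, R-spondin-1, Noggin and Wnt-3A, and differentiated cultures spent 3 days without the last of these. There were 3 libraries in each of the 4 groups. The labels give neither the Ahr allele, nor the embryonic stem cell line it was made in, nor the number of backcrosses, nor whether each library had an animal or culture of its own. The p-values therefore rest on library-to-library spread, which may be technical.

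AhR, the aryl hydrocarbon receptor, is a ligand-activated transcription factor that pairs with ARNT on DNA elements with the core GCGTG and acts as an environmental sensor in the gut. A gene altered in embryonic stem cells of one mouse strain and crossed into another travels with the donor chromosome around it, a segment that shortens as generations of backcrossing pass. Genes in such a segment can differ from the recipient strain in sequence or in level, whatever the altered gene does. The files hold no genotypes, so effects of losing AhR and effects of linked donor sequence cannot be told apart in these comparisons.

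Depth, as recovered reads, ran from 25.1 to 99.0 M. The 10 markers of colonic epithelium were present in every group, and the immune, blood and endothelial markers summed to at most 52.2 normalized counts in any library, with Cd3e at 0 in all 12. WT stem library 1 stood apart. Its fibroblast and muscle markers summed to 22256 normalized counts, against 55.0 to 639 in the other 5 stem libraries, although Dcn and Lum, which mark fibroblasts, were at 0 there. Counts that include this library are therefore also given without it. The epithelial markers summed to 894263 to 941049 in KO differentiated libraries, against 1164660 to 1211620 in WT, a sum in which Krt8, Cdh1 and Krt18 are the most abundant. Single markers moved further with genotype. Car1, of mature colonocytes, changed by -3.39 ± 0.45 in the stem cell condition and -2.29 ± 0.45 in the differentiated condition (adjusted p = 0.00166 and 0.00501). Krt20, of differentiated surface cells, changed by -2.14 ± 0.44 and -2.07 ± 0.44 (adjusted p = 0.0166 and 0.00684). Lgr5, of stem cells, changed by 1.02 ± 0.32 in the differentiated condition (adjusted p = 0.035). The part of these shifts in the results on flanking genes was not tested. Ahr (ENSMUSG00000019256, chr12:35497974-35535038) had 2503, 2831 and 2690 normalized counts in the KO stem libraries, against 1762, 1746 and 1909 in WT, and 3824, 3356 and 3110 in the KO differentiated libraries, against 2127, 2236 and 2260 in WT. It was thus higher in the libraries labelled KO, and a count over the whole gene cannot check a deletion of part of it. KO below means the libraries with that label.

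Flanking genes differed between genotypes in both culture conditions, in both directions. In such bulk cultures fewer cells of a type and less RNA per cell cannot be told apart. In the stem cell condition 27 of the 113 members (23.9%) were called, meaning an adjusted p under 0.05 over all genes tested, and 6.57% of all genes were. Of these members 12 were higher in KO, beside 3.48% of all genes, and 15 were lower, beside 3.09%. In the differentiated condition 45 members (39.8%) were called, 21 higher and 24 lower in KO, beside 27.6% of all genes, 13.8% higher and 13.9% lower. With a limit of 2-fold added, 12 members (10.6%) were called in the stem cell condition and 16 (14.2%) in the differentiated condition, beside 2.3% and 6.33% of all genes. Elsewhere on chromosome 12 the calls were 26 of 381 genes (6.82%) with Wnt-3A and 114 (29.9%) without it. The median log2 change of members was -0.11 in the stem cell condition and -0.06 in the differentiated condition, against -0.04 and 0.02 over all genes. The median size of the change, regardless of sign, was 0.27 and 0.38 for members, against 0.16 and 0.23 for all genes.

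Without the 3 members that passed through 1 genotype, 25 of 110 were called in the stem cell condition, 42 in the differentiated condition and 20 in both. Sox11 stays among these 110. Without WT stem library 1, 43 members (38.1%) were called in the stem cell condition, the original 27 among them, beside 9.19% of all genes. In edgeR on recovered reads the stem cell count was 26 (6.35% of all genes), and in DESeq2 it was 41 (14.2% of all genes). With only the 6 stem libraries in the fit it was 15, beside 2.00% of all genes.

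**Figure D1:**
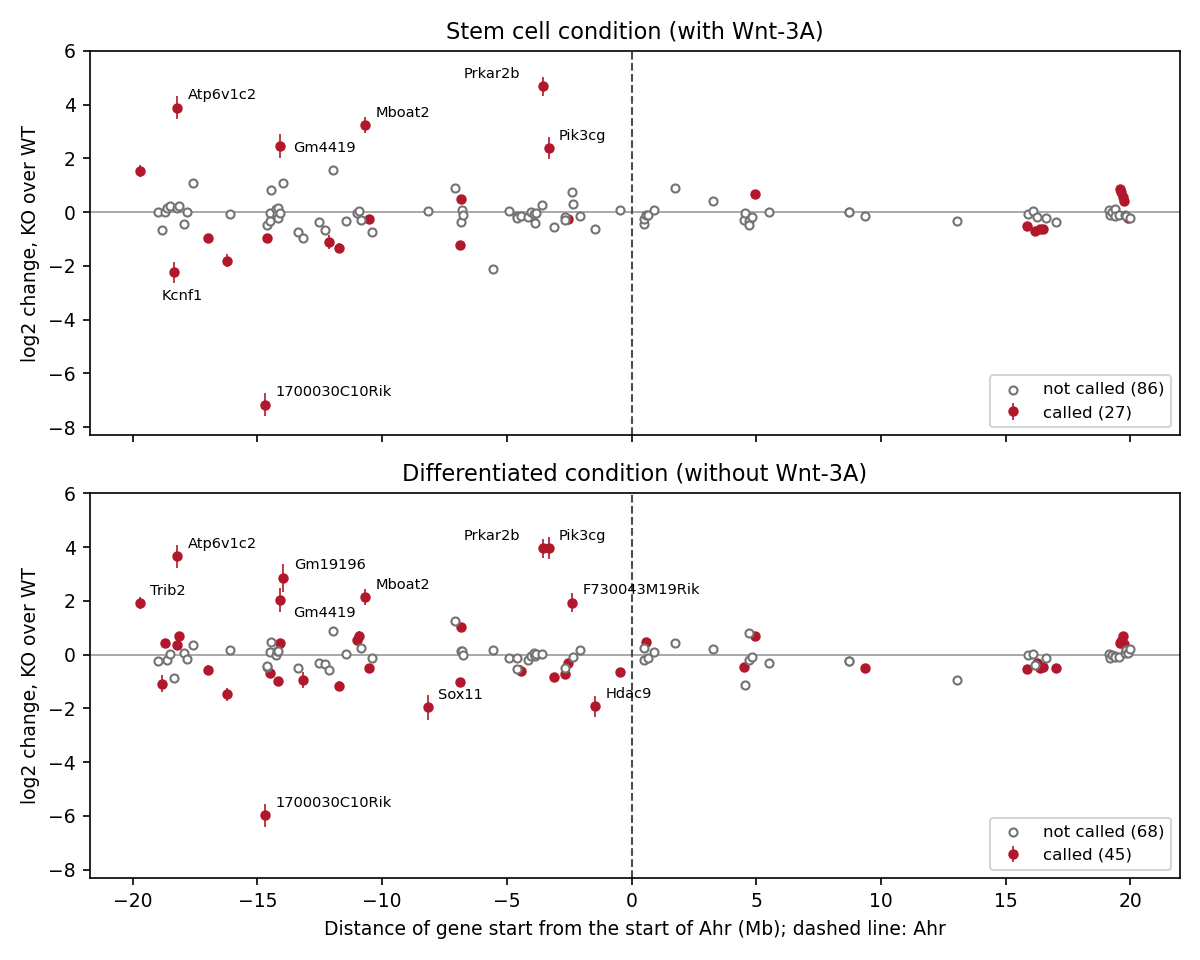
Log2 change of KO over WT (vertical axis) for each of the 113 flanking genes against the distance of its start from the start of Ahr in Mb (horizontal axis), in the stem cell condition above and the differentiated condition below. Filled points with standard errors are the 27 and 45 called genes, open points are the others, and 1700030C10Rik stands lowest in both panels while Prkar2b (4.67) stands highest in the upper one.

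Most stem cell calls recurred in the differentiated condition. Both comparisons share 1 estimate of the spread, and KO libraries of the same number deviated together across conditions. The recurrence is therefore not an independent repeat. Of the 113 members, 22 (19.5%) were called in both conditions with the same direction, 12 higher and 10 lower in KO, and 0 with opposite directions. Over all genes 3.21% were called in both with the same direction, and over the rest of chromosome 12 17 of 381 (4.46%). Opposite calls were rare over all genes too, at 57 of 14856, so their absence among members is near the background. The 22 were 81.5% of the stem cell calls and 48.9% of the differentiated calls of members. Over all genes such calls made up 48.9% of the stem cell calls and 11.6% of the differentiated calls. A further 5 members were called in the stem cell condition alone and 23 in the differentiated condition alone. Across the 113 genes the changes in both conditions had a Pearson r of 0.87 and a Spearman correlation of 0.69, where all genes tested had a Pearson r of 0.48. These genes share their libraries and are not independent replicates. Included are the members that had to differ to pass the filter, among them 1700030C10Rik, which had the largest fall. The KO and WT libraries did not overlap, on the same side in both conditions, for 37 members (32.7%), 16 higher and 21 lower in KO, beside 11.7% of all genes and 55 of 381 (14.4%) of the rest of chromosome 12. All 22 genes called in both conditions were among the 37. Of the 22, 18 kept both calls when any single library was left out. Without WT stem library 1 the count called in both conditions was 29.

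**Figure D2:**
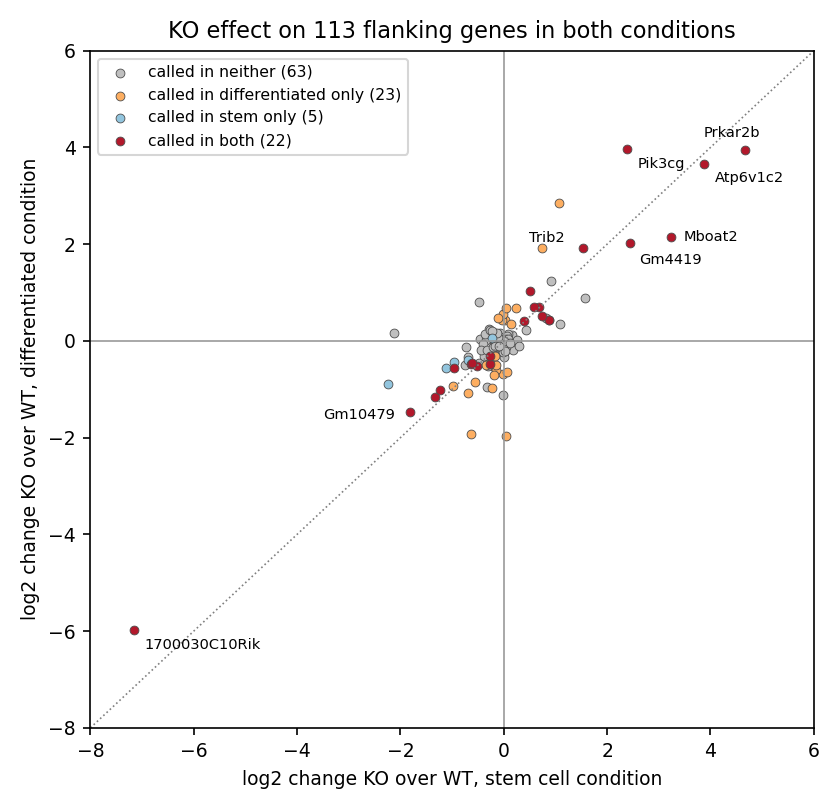
Log2 change of KO over WT in the stem cell condition (horizontal axis) against that in the differentiated condition (vertical axis) for the 113 flanking genes, coloured by where they were called, with the dotted line of equal change. The 22 genes called in both conditions lie at the lower left and upper right, and none of the 113 was called in opposite directions, beside 57 of 14856 genes tested in all.

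By position, calls in both conditions lay from 19.7 Mb below Ahr (Trib2) to 19.7 Mb above it (Srp54c). In the stem cell condition none of the 8 members within 2 Mb of Ahr was called (6.57% over all genes), against 12 of 43 at 10 to 20 Mb below it and 9 of 24 at 10 to 20 Mb above it. In the differentiated condition 20 of 43 and 9 of 24 were called at those distances. Of the 8 genes within 2 Mb, 3 were called in the differentiated condition, 2 of 2 below Ahr and 1 of 6 above it, beside 27.6% of all genes. In 5-Mb bins of the stem cell condition, 0 of 22 tested genes were called in the adjoining pair of bins below the window and 0 of 21 in the adjoining pair above it. At the share of 6.57% over all genes, sets of 8, 21 or 22 genes can hold no call, so these counts of 0 are near the background. In the differentiated condition 7 of 14 genes (50%) were called in the first 5-Mb bin above the window, beside 8 of 16 in the lowest bin inside it. Within the window the stem cell count was 5 of 16 in the lowest bin and 9 of 23 in the highest one. The bins between 40.5 and 50.5 Mb of the chromosome held only 5 tested genes, and none of them was called in the stem cell condition. Bins farther out were called at up to 18.2% (2 of 11 genes between 115.5 and 120.5 Mb). Some neighbouring members share sequence or overlap, so bins do not hold independent genes.

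**Figure D3:**
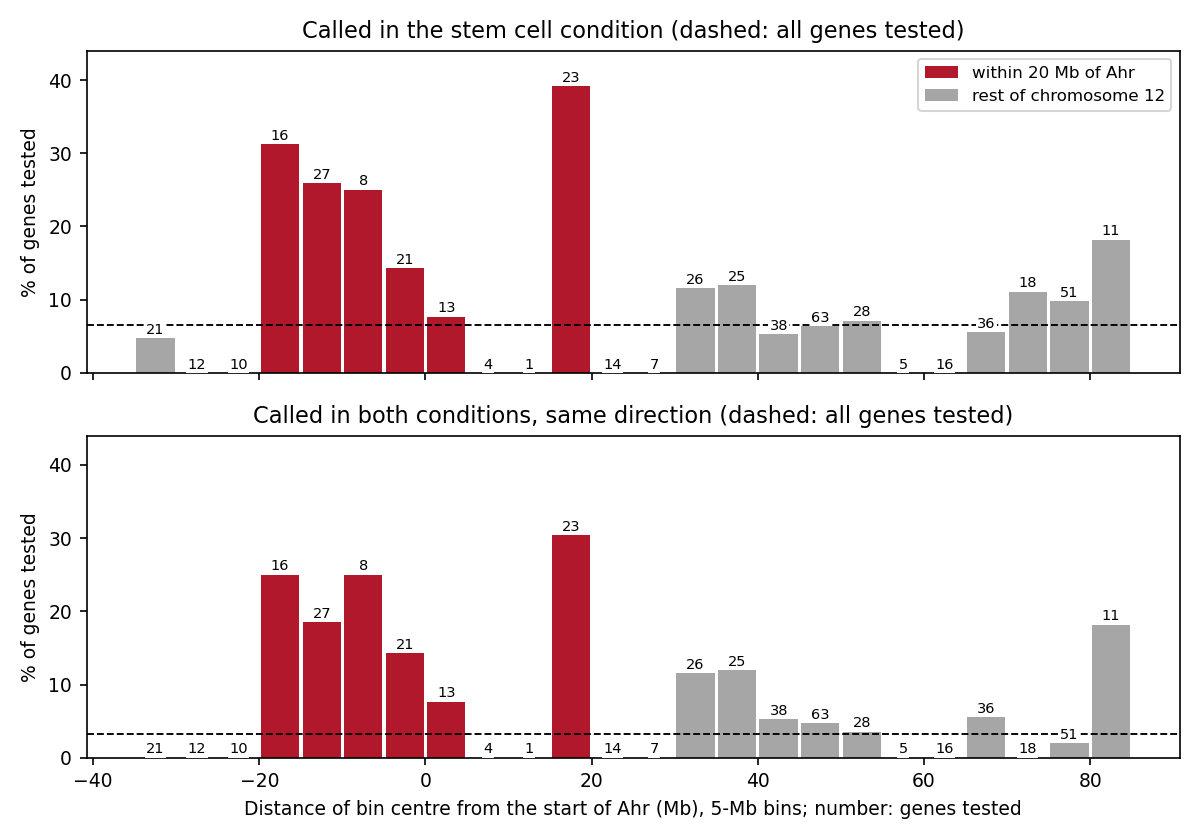
Share of tested genes called in the stem cell condition (upper panel) and in both conditions with the same direction (lower panel) in 5-Mb bins of chromosome 12, by distance of the bin centre from the start of Ahr, with the number of genes above each bar and the share over all genes dashed (6.57% and 3.21%). Red bars lie within 20 Mb of Ahr, where the bins at either edge reach 31.2% and 39.1% in the stem cell condition, and grey bars are the rest of the chromosome.

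Prkar2b and Pik3cg, neighbouring signalling genes 3.3 to 3.5 Mb below Ahr, were higher in KO in both conditions, and Prkar2b had the largest stem cell rise of the 113 members. Prkar2b (ENSMUSG00000002997, chr12:31958476-32061296, minus strand) encodes the beta isoform of the type II regulatory subunit of protein kinase A. It had 307, 490.2 and 497 normalized counts in KO stem libraries, against 17.9, 9.97 and 20.8 in WT. In the differentiated condition the KO libraries had 183, 353 and 436, against 19.8, 14.3 and 22.7 in WT. Every KO library lay far above every WT library, and the log2 change was 4.67 ± 0.36 in the stem cell condition (SE, n = 3 libraries each, limma adjusted p = 3.54e-05) and 3.96 ± 0.36 in the differentiated condition (adjusted p = 1.08e-04). Its neighbour Pik3cg (ENSMUSG00000020573, chr12:32173473-32208659, minus strand) encodes the catalytic subunit of phosphoinositide 3-kinase gamma, known best from leukocytes. Its counts were 54.4, 76.3 and 81.4 in KO stem libraries, against 11.4, 24.4 and 6.92 in WT, and 376, 284 and 272 in KO differentiated libraries, against 24.4, 11.9 and 22.7 in WT. The groups did not overlap in either condition, and the log2 changes were 2.38 ± 0.40 (adjusted p = 0.0057) and 3.96 ± 0.40 (adjusted p = 1.84e-04). Ptprc, a gene of all leukocytes, had at most 3.05 counts in any KO library and 5.97 in any WT library, and the leukocyte gene Itgam had at most 10.2 in KO and 20.4 in WT. The summed immune, blood and endothelial markers were lower in KO than in WT differentiated libraries, at 19.1 to 24.6 against 35.9 to 52.2. With only the 6 stem libraries in the fit the stem cell call of Pik3cg was lost (adjusted p = 0.0593).

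Trib2, which encodes a pseudokinase that guides proteins to degradation, is the member farthest below Ahr (chr12:15791727-15816922, minus strand). It had 187, 153 and 166 counts in KO stem libraries, against 42.4, 59.8 and 75.0 in WT, and 472, 431 and 389 in KO differentiated libraries, against 104, 154 and 90.9 in WT. The KO libraries were higher throughout, with log2 changes of 1.53 ± 0.23 (adjusted p = 0.00317) and 1.91 ± 0.23 (adjusted p = 5.03e-04). Dock4, an activator of Rac GTPases, rose by less in both conditions (0.69 ± 0.10, adjusted p = 0.00256, and 0.71 ± 0.10, adjusted p = 0.00111). It had 944, 947 and 1008 counts in KO stem libraries, against 611, 542 and 649.8 in WT. Kidins220, a membrane scaffold of neurotrophin and ephrin signalling, fell in both (-0.26 ± 0.05, adjusted p = 0.0144, and -0.48 ± 0.05, adjusted p = 2.68e-04). The stem cell call of Kidins220 was lost without KO stem library 2 (adjusted p = 0.0692) and with only the stem libraries in the fit (adjusted p = 0.0705). Asap2, Greb1 and Arhgap5 fell in the differentiated condition without a call in the stem cell condition. Asap2, a GTPase-activating protein for Arf proteins, changed by -0.67 ± 0.11 (adjusted p = 0.00176). Greb1, known as an oestrogen-induced gene, changed by -1.08 ± 0.31 (adjusted p = 0.0254), a call lost without KO differentiated library 1 or any of the 3 WT differentiated libraries (adjusted p up to 0.106). Arhgap5, a GTPase-activating protein, changed by -0.51 ± 0.10 (adjusted p = 0.00585). Among the 16 members of the list of kinases, phosphatases and signalling genes, 3 were higher, 1 was lower and 12 gave no call with Wnt-3A, and in the differentiated condition 4 were higher, 5 lower and 7 not called. The shares called were 25% and 56.2%, beside 6.57% and 27.6% of all genes, and the median log2 change of the list was -0.01 and 0.01.

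Genes of metabolism and ion transport included further large rises. Atp6v1c2 (ENSMUSG00000020566, chr12:17284721-17329359, minus strand) encodes a C subunit of the vacuolar proton pump. In the stem cell condition KO libraries had 1366, 1077 and 857 counts, against 114, 65.4 and 50.8 in WT. In the differentiated condition they had 56.4, 21.4 and 19.1, against 0.763, 1.19 and 2.27 in WT. The gene was low in differentiated cultures of both genotypes and higher in every KO library than in any WT library of the same condition, with log2 changes of 3.88 ± 0.43 (adjusted p = 4.62e-04) and 3.66 ± 0.43 (adjusted p = 4.67e-04). The 3 WT differentiated libraries held 3 reads of it in all and the KO libraries 122, a ratio of 28.3 per unit of depth with a 95% counting interval of 9.47 to 139 (exact, counting error only). It overlaps Pdia6 on the opposite strand, and whether the counting used strand is not given in the sources used here. Pdia6, a protein disulphide isomerase gene of the endoplasmic reticulum, had 15768, 15984 and 14868 counts in KO stem libraries, against 14249, 14346 and 13826 in WT, and changed by 0.14 ± 0.06 (adjusted p = 0.202). In differentiated libraries Pdia6 had 7774, 8179 and 8003 in KO, against 6676, 6474 and 5703 in WT, and rose (0.35 ± 0.06, adjusted p = 0.00296), and its groups did not overlap in either condition.

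Mboat2 (ENSMUSG00000020646, chr12:24830879-24964397, plus strand), a lysophospholipid acyltransferase of membrane lipid remodelling, had 1619, 2337 and 2371 counts in KO stem libraries, against 121, 327 and 264 in WT. Its differentiated counts were 1339, 1850 and 1662 in KO, against 318, 424 and 352 in WT. The groups were far apart in both conditions, at log2 changes of 3.24 ± 0.31 (adjusted p = 1.77e-04) and 2.14 ± 0.31 (adjusted p = 0.00123). Adi1, the acireductone dioxygenase of the methionine salvage pathway, had 4697, 4973 and 4894 counts in KO stem libraries, against 3484, 3299 and 3496 in WT, and 3267, 3080 and 3060 in KO differentiated libraries, against 1465, 1672 and 1492 in WT. Its libraries agreed closely within each group, and it rose by 0.50 ± 0.06 (adjusted p = 9.05e-04) and 1.02 ± 0.06 (adjusted p = 4.67e-06). Kcnf1, a modifying subunit of voltage-gated potassium channels, was lower in KO in the stem cell condition, with 14.0, 10.3 and 6.11 counts in KO and 31.0, 68.7 and 56.6 in WT (-2.25 ± 0.40, adjusted p = 0.00806), and was not called in the differentiated condition (-0.88 ± 0.40, adjusted p = 0.123). With only the stem libraries in the fit the adjusted p of Kcnf1 was 0.0559.

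Iah1, an esterase of the family that hydrolyses isoamyl acetate in yeast, had 905, 1018 and 937 counts in KO differentiated libraries, against 1834, 1876 and 1931 in WT (-0.98 ± 0.12, adjusted p = 5.03e-04). Nampt, the rate-limiting enzyme of NAD salvage, fell in the differentiated condition as well (-0.70 ± 0.21, adjusted p = 0.0316), a call lost without KO differentiated library 1 or any of the 3 WT differentiated libraries (adjusted p up to 0.124). Of the 15 members of this list, 3 were higher, 1 was lower and 11 gave no call with Wnt-3A, and 3 were higher, 2 lower and 10 not called in the differentiated condition. The shares called were 26.7% and 33.3%, beside 6.57% and 27.6% of all genes. Its median log2 change was -0.14 and -0.13, against -0.04 and 0.02 for all genes.

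**Figure D4:**
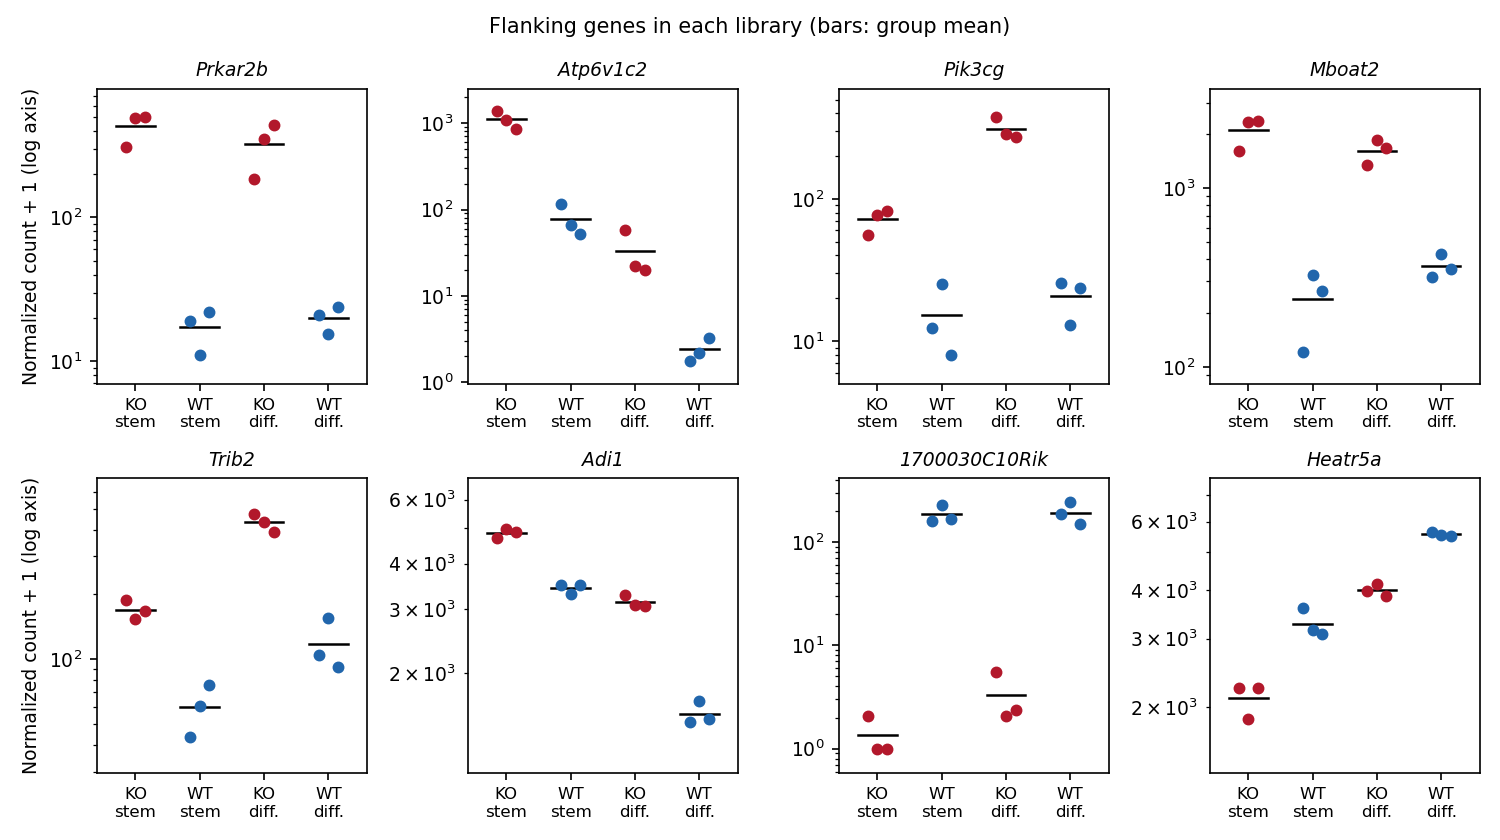
Normalized count plus 1 on a log axis in each of the 12 libraries for 8 flanking genes, with KO in red, WT in blue and a bar at each group mean (n = 3 libraries). In all 8 genes the KO points lie wholly above or, for 1700030C10Rik and Heatr5a, wholly below the WT points of the same condition. 1700030C10Rik had to differ between genotypes to pass the filter.

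Promoters of the 4 protein-coding members with the largest rises in either condition are shown because AhR acts at sites with the core GCGTG. Of 89 members with a listed RefSeq promoter, 45 (50.6%) held GCGTG on either strand within the 250 bases before the start, compared with 5999 of 13809 promoters of genes tested (43.4%) and 28.2% of all promoters listed. Among members called in both conditions 12 of 18 (66.7%) held it, and among members called in neither 25 of 49 (51.0%). A match is a description of the letters and not a binding site. The 250 bases before the RefSeq start (GRCm38.p6) of Prkar2b (chr12:32061278-32061527, minus strand), Atp6v1c2 (chr12:17324731-17324980, minus strand), Mboat2 (chr12:24831349-24831598, plus strand) and Pik3cg (chr12:32208660-32208909, minus strand) read as follows, 5′ to 3′ on the gene's strand, with GCGTG or its reverse complement CACGC in capitals.
Prkar2b: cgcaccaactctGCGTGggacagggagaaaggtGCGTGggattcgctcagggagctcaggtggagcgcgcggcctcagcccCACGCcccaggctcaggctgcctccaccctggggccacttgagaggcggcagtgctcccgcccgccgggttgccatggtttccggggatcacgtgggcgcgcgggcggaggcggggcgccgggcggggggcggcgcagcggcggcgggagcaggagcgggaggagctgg
Atp6v1c2: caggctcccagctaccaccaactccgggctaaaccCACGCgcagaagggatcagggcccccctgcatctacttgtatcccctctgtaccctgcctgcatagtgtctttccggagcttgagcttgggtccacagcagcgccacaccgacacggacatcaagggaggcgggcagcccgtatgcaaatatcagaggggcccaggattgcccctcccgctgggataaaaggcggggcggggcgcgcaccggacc
Mboat2: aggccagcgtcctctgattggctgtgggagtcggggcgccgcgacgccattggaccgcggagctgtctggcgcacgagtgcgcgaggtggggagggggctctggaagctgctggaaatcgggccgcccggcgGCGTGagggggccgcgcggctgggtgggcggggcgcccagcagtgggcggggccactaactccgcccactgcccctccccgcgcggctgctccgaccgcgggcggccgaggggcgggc
Pik3cg: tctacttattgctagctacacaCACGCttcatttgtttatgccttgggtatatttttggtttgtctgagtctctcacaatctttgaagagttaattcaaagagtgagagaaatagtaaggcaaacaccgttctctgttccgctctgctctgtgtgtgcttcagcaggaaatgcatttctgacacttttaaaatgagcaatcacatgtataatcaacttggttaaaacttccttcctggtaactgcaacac
The Prkar2b sequence held 3 matches, and the other sequences held 1 each.

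The most abundant member that changed was Rps7 (ENSMUSG00000061477, chr12:28630854-28635953, minus strand), a gene of the small ribosomal subunit. Its counts were 15722, 17206 and 16195 in KO stem libraries, against 36474, 38449 and 40669 in WT, and 10247, 10731 and 10478 in KO differentiated libraries, against 21174, 21215 and 21017 in WT. The fall, -1.23 ± 0.05 (adjusted p = 5.51e-07) and -1.01 ± 0.05 (adjusted p = 2.03e-06), was tight across libraries. Rps7 has a near-identical processed pseudogene on chromosome X, Gm6472 (ENSMUSG00000095597, chrX:152909505-152910155, minus strand), which holds 51.8% of the 50-base windows of the Rps7 transcript. Gm6472 moved the other way, with 20468, 24451 and 23358 counts in KO stem libraries, against 3792, 3776 and 4371 in WT, and 14589, 16255 and 16247 in KO differentiated libraries, against 1886, 2556 and 1912 in WT. Its log2 change was 2.51 ± 0.12 (adjusted p = 5.89e-07) and 2.90 ± 0.12 (adjusted p = 2.43e-07).

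Rps7 took 41.0% to 43.4% of the summed counts of both genes in KO stem libraries, against 90.3% to 91.1% in WT, and 39.2% to 41.3% in KO differentiated libraries, against 89.2% to 91.8% in WT. The sum itself was 36190, 41656 and 39553 in KO stem libraries, against 40266, 42225 and 45039 in WT, and the groups overlapped. In differentiated cultures it was 24836, 26986 and 26725 in KO, against 23060, 23771 and 22929 in WT. When the 2 genes were summed before the fit, an alternative chosen after seeing the data, the log2 change was -0.12 ± 0.07 with Wnt-3A (adjusted p = 0.29) and 0.17 ± 0.07 without it (adjusted p = 0.0778), so that neither was called and the second had the opposite sign. The sequences are shown because these genes differ at few bases. Over the 582 bases from the start codon to the last coding base of Rps7, the reference sequences of both genes (GENCODE vM21) differ at 3 bases (T26G, G48A and G123T, the base of Rps7 first, counted from 1 at the start codon), and the last 459 bases are identical. Bases 1 to 150 read as follows, 5′ to 3′ on the coding strand, with the differing bases in capitals.
Rps7: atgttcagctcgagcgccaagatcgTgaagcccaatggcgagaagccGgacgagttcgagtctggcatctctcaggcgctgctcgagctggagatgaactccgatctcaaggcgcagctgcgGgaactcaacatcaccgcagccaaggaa
Gm6472: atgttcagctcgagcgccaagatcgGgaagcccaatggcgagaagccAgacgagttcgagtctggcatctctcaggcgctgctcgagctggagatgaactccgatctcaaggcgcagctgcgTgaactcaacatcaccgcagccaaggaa
The bases carried by the KO and WT mice at these positions were not analysed here, and the assignment of reads was not tested.

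**Figure D5:**
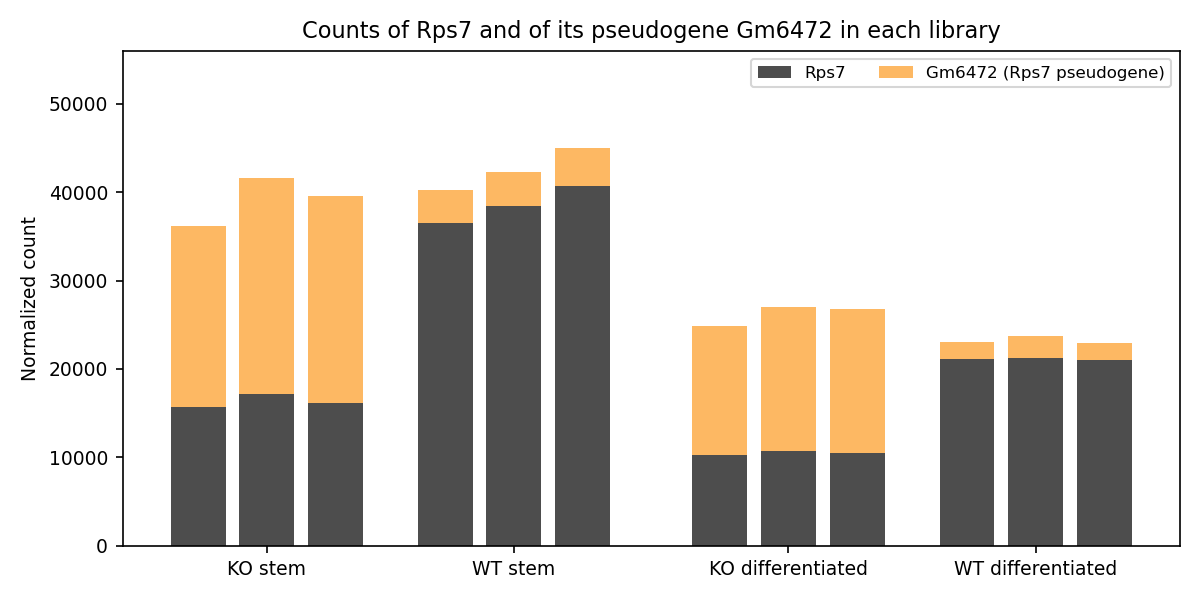
Normalized counts (vertical axis, from 0) of Rps7 (dark) and of its pseudogene Gm6472 (orange) stacked for each of the 12 libraries, KO left of WT in each condition. Rps7 makes up 39.2% to 43.4% of the bar in the 6 KO libraries and 89.2% to 91.8% in the 6 WT libraries, while bar heights of both genotypes in the stem cell condition overlap.

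Other members shared sequence with further genes too, and whether this affected their calls was not tested. Of the 22 members called in both conditions, 8 shared over 20% of their transcript windows with transcripts of other genes, a property of 22 of the 113 members, and 14 did not. Members with that much sharing were called at 40.9% in the stem cell condition and 54.5% in the differentiated condition. The other 91 members were called at 19.8% and 36.3%, beside 6.57% and 27.6% of all genes. The pairs Srp54a with Srp54c and Fam177a with 1700047I17Rik2 lie together at the upper edge of the window, 19.6 to 19.7 Mb above Ahr. Srp54a and Srp54c encode the GTPase of the signal recognition particle, which brings secretory proteins to the endoplasmic reticulum. Srp54a had 2892, 3381 and 2831 counts in KO stem libraries, against 1459, 1700 and 1821 in WT, and Srp54c had 10986, 11665 and 10734 in KO, against 8106, 8558 and 8635 in WT. All 4 genes of the pairs rose in both conditions, by 0.40 to 0.87 in the stem cell condition and by 0.41 to 0.70 in the differentiated condition on the log2 scale. Since 70.3% to 100% of the windows of each are found in its partner, the split of reads within a pair is uncertain. A further copy that was not analysed here, Srp54b, holds 75.1% of the windows of Srp54a and 93.8% of those of Srp54c, so the sum of that pair does not settle the assignment of reads either. Srp54a plus Srp54c changed by 0.49 ± 0.06 (adjusted p = 6.25e-04) and 0.41 ± 0.06 (adjusted p = 9.27e-04), and Fam177a plus 1700047I17Rik2 by 0.67 ± 0.06 (adjusted p = 1.97e-04) and 0.58 ± 0.06 (adjusted p = 3.09e-04). With Rps7 and both pairs summed, 19 of 111 units were called in both conditions. The differentiated call of Srp54a alone was lost without WT differentiated library 3 (adjusted p = 0.0527).

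The largest fall of any member was in 1700030C10Rik (ENSMUSG00000099759, chr12:20804381-20815779, minus strand), a non-coding gene that overlaps Gm28503 on the same strand. Its counts were 1.08, 0 and 0 in KO stem libraries, against 158, 227 and 166 in WT, and 4.57, 1.07 and 1.36 in KO differentiated libraries, against 184, 241 and 149.9 in WT. In the stem cell condition the KO libraries held 2 reads in all and the WT libraries 446. WT thus exceeded KO 393-fold per unit of depth, with a 95% counting interval of 108 to 3258 (exact, counting error only). A second gene with the same symbol (ENSMUSG00000091071), under the filter on low values, had 2 reads in the 6 KO libraries and 41 in the 6 WT libraries, with reads in 2 of 6 KO and 6 of 6 WT libraries. Other predicted or non-coding members changed in either direction. Gm4419 rose in both conditions (2.45 ± 0.44, adjusted p = 0.00874, and 2.03 ± 0.44, adjusted p = 0.00781), at 32.3, 40.4 and 30.5 counts in KO stem libraries, against 1.63, 8.86 and 9.23 in WT, and it overlaps the much more abundant Ywhaq on the opposite strand. Gm10479 fell in both (-1.81 ± 0.24, adjusted p = 0.00141, and -1.48 ± 0.24, adjusted p = 0.002). Gm19196 and F730043M19Rik rose in the differentiated condition (2.86 ± 0.53, adjusted p = 0.0035, and 1.93 ± 0.36, adjusted p = 0.00367). 1700030C10Rik, Gm4419 and Gm19196 passed the filter only through the genotype in which they were high. Their differences were therefore partly set by the choice, and neither their p-values nor the counting interval of 1700030C10Rik lend support. The counts that follow include them. Of the 20 members that are not protein-coding, 5 were called in the stem cell condition, 6 in the differentiated condition and 3 in both. These are 25% and 30% in the separate conditions, beside 6.57% and 27.6% of all genes. The stem cell call of Gm4419 was lost with only the stem libraries in the fit (adjusted p = 0.0913).

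A group of neighbours 15.9 to 16.5 Mb above Ahr fell together. G2e3, which encodes a ubiquitin ligase, had 1189, 1270 and 1481 counts in KO stem libraries, against 1890, 1853 and 1887 in WT (-0.52 ± 0.08, adjusted p = 0.00446). Heatr5a had 2244, 1864 and 2241 in KO stem libraries, against 3606, 3155 and 3081 in WT (-0.63 ± 0.08, adjusted p = 0.00128). Dtd2, an enzyme that clears wrongly charged transfer RNAs, had 499.9, 456 and 414 in KO stem libraries, against 765, 657 and 688 in WT (-0.62 ± 0.10, adjusted p = 0.00393). In the differentiated condition these genes changed by -0.53 ± 0.08 (G2e3, adjusted p = 0.0018), -0.48 ± 0.08 (Heatr5a, adjusted p = 0.00247) and -0.45 ± 0.10 (Dtd2, adjusted p = 0.00704), and their KO and WT libraries did not overlap in either condition. The stem cell calls of G2e3 and Dtd2 were lost with only the stem libraries in the fit (adjusted p = 0.0513 for each). Ap4s1, a small subunit of the adaptor complex AP-4 that sorts cargo at the trans-Golgi, lies among them and fell in the stem cell condition (-0.69 ± 0.16, adjusted p = 0.0255), a call lost without any of the 3 KO stem libraries (adjusted p up to 0.0886). Sypl, a synaptophysin-like vesicle membrane protein gene 2.5 Mb below Ahr, fell in both conditions (-0.27 ± 0.06, adjusted p = 0.0257, and -0.32 ± 0.06, adjusted p = 0.00457), and its stem cell call was lost without any one of 5 of the 6 stem libraries (adjusted p up to 0.101, all but WT stem library 1). Among the 15 members of the list of secretory pathway genes, 2 were higher, 2 lower and 11 not called with Wnt-3A, and without it 3 were higher, 1 lower and 11 not called. That is 26.7% called in either condition, beside 6.57% and 27.6% of all genes, with medians of -0.04 and 0.04.

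On each side of Ahr the 4 nearest protein-coding genes gave no call in the stem cell condition, where 6.57% of all genes were called. So few genes can give no call at that share. The 4 nearest protein-coding members below it, Atxn7l1, Twistnb, Hdac9 and Snx13, and the 4 above it, Agr2, Tspan13, Bzw2 and Ankmy2, had stem cell log2 changes between -0.64 ± 0.40 (Hdac9, adjusted p = 0.348) and 0.30 ± 0.10 (Atxn7l1, adjusted p = 0.0831). In the differentiated condition Hdac9, a class IIa histone deacetylase gene, had 16.8, 11.8 and 13.6 counts in KO, against 58.0, 53.7 and 54.5 in WT (-1.92 ± 0.40, adjusted p = 0.00618). Snx13, a sorting nexin gene of endosomes, had 4249, 5266 and 5218 in KO, against 7535, 7169 and 8168 in WT (-0.64 ± 0.13, adjusted p = 0.00629). Bzw2, a regulator of translation start, had 3601, 3472 and 3353 in KO, against 2611, 2678 and 2276 in WT (0.47 ± 0.08, adjusted p = 0.00339). The libraries did not overlap in any of these 3 genes in that condition. They were the only calls among these nearest genes there, beside 27.6% of all genes. Agr2, a disulphide isomerase of goblet cells, had 644, 1605 and 1718 counts in KO differentiated libraries, against 1588, 1099 and 1495 in WT, and these overlapped (-0.18 ± 0.33, adjusted p = 0.715). Tspan13, Ankmy2, Atxn7l1 and Twistnb, a subunit gene of RNA polymerase I, were not called in either condition.

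The list of transcription and chromatin genes was called at the background share in the stem cell condition. Of the 15 members of this list, 1 was called in the stem cell condition, lower in KO (G2e3, the ubiquitin ligase gene above). In the differentiated condition 3 were higher, 3 lower and 9 not called. These are 6.67% and 40% of the list, beside 6.57% and 27.6% of all genes, with median changes of -0.11 and -0.09. Sox11, a SOX family factor of progenitor cells, had 10.7, 7.48 and 3.41 counts in KO differentiated libraries, against 38.1, 29.9 and 20.4 in WT (-1.96 ± 0.47, adjusted p = 0.011). Sox11 passed the filter only with the WT differentiated libraries, in which it was high. Its difference was therefore partly set by the choice, and its p-value lends no support. Grhl1, a grainyhead-like factor of epithelia, had 513, 441 and 402 in KO differentiated libraries, against 309, 291 and 245 in WT (0.68 ± 0.19, adjusted p = 0.0247), a call lost without either of KO differentiated libraries 1 and 2 or WT differentiated libraries 2 and 3 (adjusted p up to 0.0965). Taf1b, a subunit of the RNA polymerase I selectivity factor, and E2f6, a repressor of the E2F family, rose too (0.56 ± 0.10, adjusted p = 0.0025, and 0.43 ± 0.09, adjusted p = 0.00741). In the list of RNA, ribosome and protein turnover genes, 11 members, Nol10, a nucleolar protein gene, rose in the differentiated condition (0.69 ± 0.12, adjusted p = 0.00316). Psma6, an alpha subunit of the proteasome core, fell in the stem cell condition (-0.23 ± 0.05, adjusted p = 0.0323), a call lost without any of the 3 KO stem libraries or WT stem library 3 (adjusted p up to 0.129). That list had 1 member higher, 3 lower and 7 not called with Wnt-3A, and without it 3 higher, 2 lower and 6 not called. These are 36.4% and 45.5% of the list, beside 6.57% and 27.6% of all genes, with medians of -0.12 and 0.05. The stem cell calls were Rps7, Psma6, Heatr5a and Fam177a. No role in RNA or protein turnover is shown here for Heatr5a or Fam177a, and Rps7 was not called when summed with Gm6472. The shares therefore describe the list and not a function.

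In the list of cytoskeleton, adhesion and membrane traffic genes, 1 of 10 members (Dock4) was called with Wnt-3A, and without it 1 was higher, 3 were lower and 6 were not called. These are 10% and 40% of the list, beside 6.57% and 27.6% of all genes, with medians of -0.06 and -0.30. Fam110c fell there (-0.59 ± 0.20, adjusted p = 0.0457), a call lost without any one of the 6 differentiated libraries (adjusted p up to 0.162). Ccdc71l, a coiled-coil protein gene in none of the lists, also fell in the differentiated condition (-0.85 ± 0.18, adjusted p = 0.00618). Of the 31 members in none of the lists, 2 were higher and 7 lower in the stem cell condition, and 4 higher and 8 lower in the differentiated condition (29.0% and 38.7%, beside the same shares of all genes).

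Withdrawal of Wnt-3A changed most members in either genotype. Differentiated and stem cultures differed for 78 members (69.0%) in KO, beside 67.7% of all genes, and for 81 (71.7%) in WT, beside 72.2%. Agr2 and Scin, which encodes an actin-severing protein, rose in differentiated cultures, Agr2 by 3.91 ± 0.33 in KO and 3.65 ± 0.33 in WT, and Scin by 2.69 ± 0.40 in KO and 3.79 ± 0.40 in WT. Etv1, an ETS factor gene, and Odc1, the rate-limiting enzyme of polyamine synthesis, fell in differentiated cultures, with log2 changes for Etv1 of -2.73 ± 0.28 in KO and -2.52 ± 0.28 in WT, and for Odc1 of -1.58 ± 0.13 in KO and -2.08 ± 0.13 in WT. Atp6v1c2 fell in either genotype (-5.19 ± 0.43 in KO and -4.98 ± 0.43 in WT), and so did Dcdc2c, a gene of the doublecortin family (-1.99 ± 0.51 in KO and -2.31 ± 0.51 in WT). Hdac9 rose by 2.75 ± 0.40 in KO and 4.03 ± 0.40 in WT. Each of these 7 genes passed the test in both genotypes. Pik3cg rose in differentiated KO cultures (2.13 ± 0.40, adjusted p = 5.65e-04) and was not called in WT (0.55 ± 0.40, adjusted p = 0.234), but the difference between the genotypes did not pass its own test (1.58 ± 0.56, adjusted p = 0.0994). Pxdn, a peroxidase of basement membranes, was uneven in WT stem libraries (181, 44.3 and 17.3, the highest in library 1), rose in differentiated KO cultures by 4.62 ± 0.79 (adjusted p = 2.89e-04) and in WT by 2.34 ± 0.79 (adjusted p = 0.0191), and its WT call was lost without WT stem library 2 or 3 or WT differentiated library 1 or 2 (adjusted p up to 0.0853).

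The KO effect itself was tested for a difference between the culture conditions. It differed for 8 members (7.08%), 5 with a higher and 3 with a lower change in the differentiated condition, beside 8.7% of all genes, so the share among members was close to the background. Adi1 had the lowest adjusted p of the 8, with a change larger by 0.52 ± 0.09 on the log2 scale without Wnt-3A (adjusted p = 0.0111), and was the only one to keep this call whichever library was left out. The number of members called ranged from 1, without KO stem library 1 or WT differentiated library 3, to 14, without WT stem library 1. Beside these, 2.83%, 2.30% and 10.8% of all genes were called. It was 2 without KO stem library 2 or WT differentiated library 1 (3.09% and 3.53% of all genes) and 3 without KO stem library 3 (5.34%). It was 4 without KO differentiated library 2 (4.97%), and 5 without KO differentiated library 1 or 3 (6.19% and 6.67%).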

How the data were processed

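The 12 RNA libraries came from mouse colonic organoids. Values deposited by the authors are normalized counts of each gene (a signal, gene counts divided by a size factor of the library), and the submitters' processing notes name GRCm38, Bowtie2 (no version), RSEM 1.2.11 and DESeq2 1.18.1. Annotation, filters and strand use are not given in the sources used here. Within a library all values were multiples of its smallest one (100% within 0.05 of a whole read), so reads could be recovered.

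Groups came from the sample titles. Symbols, types and positions came from GENCODE vM21, which matched 99.3% of 48795 identifiers. The 14856 genes that reached 10 in 3 or more libraries entered limma 3.58.1 (R 4.3.3) as log2(value + 1), fitted to 4 group means over all 12 libraries with a mean-variance trend. Fold changes are on that scale, which understates changes of low genes. A call is an adjusted p (Benjamini-Hochberg, over all genes tested, two-sided) under 0.05. The fits were tested on simulated data.

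Alternatives were pseudocounts of 0.5 and 5, no filter, a mean of at least 50, recomputed size factors, quantile normalization, edgeR 4.0.16 (quasi-likelihood, TMM) and DESeq2 1.42.0 on recovered reads, only the groups compared, the replicate number as a block (also within genotype), a limit of 2-fold, and leaving out each library. Summing near-identical copies was chosen after seeing the data. Libraries with the same number deviated together between KO stem and KO differentiated cultures (correlations of residuals 0.286, 0.191 and 0.256), so numbers may pair these libraries. Between the WT conditions the correlations were 0.107, 0.0552 and 0.145, lower but above those of unlike numbers (at most 0.0111). Between KO stem and WT differentiated cultures they were 0.0806, 0.0223 and 0.0561, against at most 0.00352 for unlike numbers. In the other pairs of groups across genotypes this did not hold for every number. Whether the numbers mark a batch was not tested.

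Members, role lists and tests were chosen with earlier results of these data known. Named genes were, per genotype contrast, up to 10 called rises and 10 falls with annotated names and a mean of at least 50, the 4 nearest protein-coding members on each side of Ahr, up to 3 called members of each role list, up to 3 each way for the interaction and 4 for the conditions, and 4 predicted or non-coding genes. Pdia6, Arhgap5, Ywhaq, Gm10479 and Gm6472 were added after their values were seen. Some genes are not reported here by name. Transcript windows of 50 bases were compared with transcripts of all other GENCODE vM21 genes. Promoters came from RefSeq (GRCm38.p6).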

Additional observations from a re-analysis of the deposited data

Results flagged for a closer look

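The KO effect differed between the culture conditions, by the interaction test of the limma fit, for 8 members, and each difference is the log2 change in the differentiated condition minus that in the stem cell condition. It was -0.74 ± 0.17 for Iah1 (adjusted p = 0.0242), -0.70 ± 0.19 for Snx13 (adjusted p = 0.043) and -0.65 ± 0.15 for Asap2 (adjusted p = 0.0264), which were lower in KO without Wnt-3A and not called with it. It was 0.58 ± 0.13 for Taf1b (adjusted p = 0.0275), 0.57 ± 0.12 for Bzw2 (adjusted p = 0.0204) and 0.47 ± 0.12 for Ywhaq (adjusted p = 0.0384), which were higher in KO without Wnt-3A and not called with it. For Adi1, higher in KO in both conditions, it was 0.52 ± 0.09 (adjusted p = 0.0111). For Psma6, lower in KO with Wnt-3A and not called without it, it was 0.28 ± 0.08 (adjusted p = 0.0461). Of the 12 libraries left out one at a time, 3 ended the call of Bzw2, 4 that of Iah1, 5 that of Asap2, 7 that of Taf1b, 8 that of Ywhaq, 9 that of Snx13 and 11 that of Psma6, with adjusted p up to 0.116. Each group has 3 libraries, so no group was large enough for a search for single outlying libraries.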

How the results depend on the processing

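The number of members called in both conditions stayed between 19 and 30 under every alternative except the fit of only the groups compared, which gave 15, and the 2-fold limit, which gave 10. With the 2-fold limit 12 were called in the stem cell condition, 16 in the differentiated condition, 0 for the interaction, 29 between conditions in WT and 25 in KO. The shares over all genes were 2.30%, 6.33%, 1.80%, 32.4% and 26.5% in the same order. DESeq2 called 41 in the stem cell condition (36.3%, beside 14.2% of all genes) and 22 for the interaction (19.5%, beside 19.1%). Only the groups compared gave 15 in the stem cell condition (2.00% of all genes), and no filter gave 5 for the interaction (2.87% of all genes). With the replicate block 34 members were called in the stem cell condition, 51 in the differentiated condition, 25 in both and 17 for the interaction. Of all 14856 genes, that fit called 1486 in the stem cell condition, 4995 (33.6%) in the differentiated condition and 2141 (14.4%) for the interaction. The interaction share of members with this block, 15.04%, was thus close to the background. The block within genotype gave 81 calls between conditions in KO (68.7% of all genes) and 11 for the interaction (9.07% of all genes). No count other than that of the interaction changed by over 1.5 times with a block. Leaving out 1 library gave 22 to 43 in the stem cell condition, 38 to 43 in the differentiated condition, 1 to 14 for the interaction and 20 to 29 in both. Of 72 called results of single named genes, 50 were kept under every alternative except the 2-fold limit. The only one to change sign was Rps7 in the differentiated condition, at 0.17 when summed with Gm6472. The cause of the other differences was not tested. Recomputed size factors were equal in all 12 libraries, so that this alternative could not change a contrast. Genes with few reads, such as Hdac9 in the stem cell condition (5 reads in KO and 6 in WT), allow no statement on a change there.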

Other observations

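Of the 151 genes of the window under the filter on low values, 95 had no read in any library and 56 had some. The 6 KO libraries held 421 M reads in all and the 6 WT libraries 279 M, so reads are given with the mean normalized count. These genes were not tested, and those named here were chosen after their values were seen. Agr3, a relative of Agr2 in the secretory pathway, had 71 reads in the 6 KO libraries and 16 in the 6 WT libraries, in 5 libraries each (means 8.53 and 3.05), and 1 KO library held 39 of the 71. Rnf144a, a ubiquitin ligase gene, had 49 reads in KO, in 6 of 6 libraries, and 9 in WT, in 3 of 6 (means 6.56 and 2.12). Npas3, which encodes a bHLH-PAS factor of the same family as AhR, had 42 reads in KO, in 6 of 6 libraries, and 9 in WT, in 2 of 6 (means 5.51 and 1.70). Twist1 had 5 reads in 4 KO libraries and 37 in 1 WT library (means 0.618 and 10.1), so that 1 library carried the WT count. That was WT stem library 1, which stood apart in its fibroblast and muscle markers.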
